A study of Mus musculus with 12 samples.

Results

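The S100 genes encode small calcium-binding proteins, and 8 of them were followed across 3 murine acute myeloid leukaemia lines: S100a8, S100a9, S100a1, S100a4, S100a6, S100a10, S100a11 and S100a13. Each was measured by 1 probe set annotated to that gene alone, so the family took 8 of 28898 single-gene probe sets and 8 of the 11223 genes tested. The genes were chosen by family membership, and the family was selected on the high S100a8 and S100a9 intensities of the TB14 arrays. Their values are therefore given as a description, with no test.

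Expression was measured on 12 oligonucleotide arrays, 4 for each line, in cells grown with 10% serum and 5 ng/ml interleukin-3 and given no treatment. The line called Trib1 expressed Trib1, a pseudokinase that directs C/EBPalpha, a factor of granulocyte differentiation, to degradation. Those called TB13 and TB14 expressed Trib1 together with Bcl11a, a zinc finger repressor, so Trib1 was shared by all 3 lines and the lines with Bcl11a were compared with a single line without it. The series asks whether Bcl11a interferes with PU.1, a myeloid transcription factor encoded by Spi1. The labels do not say whether TB13 and TB14 were clones or cultures from different leukaemias, what drove the introduced genes, or whether the 4 arrays of a line came from separate cultures. The p-values given for other genes thus cover the variation between these arrays alone, and this may be technical.

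S100 proteins bind calcium through paired EF-hand loops, mostly as dimers, and then expose a surface that docks onto partner proteins. S100A8 and S100A9 pair as calprotectin, which is abundant in the cytosol of neutrophils and monocytes, binds zinc and manganese, and acts outside the cell through the receptors TLR4 and RAGE. S100A4, S100A6, S100A10 and S100A11 bind cytoskeletal proteins and annexins, S100A1 acts on calcium handling in muscle, and S100A13 takes part in release of fibroblast growth factor without a signal peptide.

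The sequences just before the gene starts are shown for the calprotectin genes, which were higher in TB14 than in Trib1. Those of S100a4 and S100a6 of the same chromosomal block, which were lower in TB14 than in Trib1, are shown beside them. RefSeq sequences of mouse build GRCm38.p6 gave windows for 7 of the 8 genes, and each printed run holds the 250 bases before the annotated start, 5′ to 3′ on the gene's strand. The S100a8 window was chr3:90668821-90669070 on the plus strand and the S100a9 window chr3:90695722-90695971 on the minus strand. Those of S100a4 and S100a6 were chr3:90603520-90603769 and chr3:90612644-90612893, both on the plus strand. Capitals mark matches to 5 short motifs searched on both strands.
S100a8: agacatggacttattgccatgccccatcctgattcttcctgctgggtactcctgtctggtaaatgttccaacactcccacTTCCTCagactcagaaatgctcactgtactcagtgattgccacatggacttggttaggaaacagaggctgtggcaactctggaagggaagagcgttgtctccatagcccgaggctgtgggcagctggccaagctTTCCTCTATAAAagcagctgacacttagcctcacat
S100a9: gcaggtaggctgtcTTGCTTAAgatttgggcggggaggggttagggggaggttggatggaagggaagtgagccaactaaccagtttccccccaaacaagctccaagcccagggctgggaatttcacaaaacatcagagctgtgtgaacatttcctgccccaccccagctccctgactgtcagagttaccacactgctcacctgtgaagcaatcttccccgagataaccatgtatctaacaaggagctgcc
S100a4: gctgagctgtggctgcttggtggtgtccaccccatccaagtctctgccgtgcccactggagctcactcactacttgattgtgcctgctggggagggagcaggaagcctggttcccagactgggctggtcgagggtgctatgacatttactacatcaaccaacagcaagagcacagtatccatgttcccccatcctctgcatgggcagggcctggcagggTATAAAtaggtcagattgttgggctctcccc
S100a6: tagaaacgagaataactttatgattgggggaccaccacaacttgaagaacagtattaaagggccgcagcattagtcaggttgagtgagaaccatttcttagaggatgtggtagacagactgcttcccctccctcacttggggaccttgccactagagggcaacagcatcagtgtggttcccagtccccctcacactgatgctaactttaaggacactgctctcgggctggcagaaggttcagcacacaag

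The PU.1-like motif GAGGAA matched the S100a8 window at 2 places, as TTCCTC on the opposite strand, from 170 to 165 and from 36 to 31 bases before the start. It also matched S100a11, and 23.3% of 32851 promoter windows of this length held it. The C/EBP-like motif TTGCNNAA matched only S100a9 among the 7 genes, as TTGCTTAA from 236 to 229 bases before the start, against 9.56% of windows. The AP-1-like motif TGANTCA matched S100a11 alone, against 6.75% of windows, and the Bcl11a-like motif TGACCA matched none, against 11.4%. TATAAA, a motif added after the sequences were seen, began 30 bases before the start of S100a8 and 31 before that of S100a4, and 12.4% of windows held it. In S100a9 those letters began at base 1 of the annotated transcript, outside the printed window. The S100a6 window matched none of the 5 motifs. A match is a run of letters and no measured binding, and in S100a8 the second TTCCTC stands directly before TATAAA.

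S100a8, the first calprotectin subunit, was dim in Trib1 at 42.4, 48.9, 46.8 and 52.6 intensity units on the 4 arrays. The TB13 arrays read 25.2, 28.1, 25.7 and 18.9, and the TB14 arrays 1584, 1608, 1531 and 1557. The 3 lines did not overlap: TB14 lay far above Trib1, and TB13 lay just below it, near its own array medians of 25.5 to 25.9. Trib1 averaged 47.7 ± 4.28, TB13 24.5 ± 3.90 and TB14 1570.0 ± 33.4 (SD over 4 arrays), a ratio of TB14 to Trib1 of 32.9 on the linear scale. On the scale of log2(intensity + 12.7), which understates changes of dim genes, TB14 was higher than Trib1 by 4.71 ± 0.068 (SE).

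S100a9, the other calprotectin subunit, read 168.0, 168.2, 151.9 and 177.2 on the Trib1 arrays. TB13 read 77.6, 61.5, 59.1 and 75.7, and TB14 read 2675, 2548, 2512 and 2546. The order of the lines was that of S100a8, with no overlap between any of them. The means were 166.3 ± 10.5, 68.5 ± 9.50 and 2570.0 ± 72.0 (SD, n = 4), and TB14 stood at 15.5 times the Trib1 mean, a log2 difference of 3.85 ± 0.063. Ranked from the highest log2 difference of TB14 against Trib1, S100a8 was number 1 and S100a9 number 3 of 11223 genes, with Mgst1 between them. Both genes kept this direction under the 4 scalings of the arrays tried, with differences from 4.63 to 4.78 for S100a8 and from 3.85 to 4.19 for S100a9. The highest S100a8 value came from calibration on the hybridization controls, which held its 4 Trib1 values constant because they lay below the dimmest control.

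**Figure D1:**
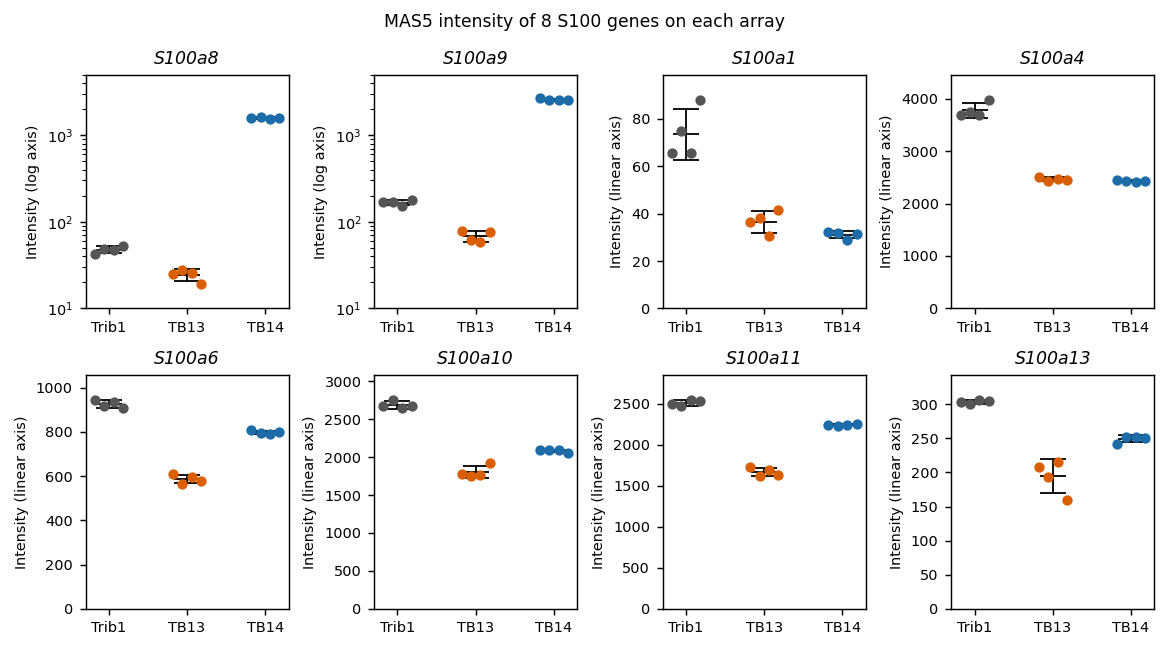
Deposited intensity of each S100 gene on the 4 arrays of Trib1, TB13 and TB14, with points for arrays and bars for the mean ± SD. The S100a8 and S100a9 panels have a log axis, and their TB14 arrays, at 1531 or above and 2512 or above, stand apart from both other lines, while the other 6 genes have their highest arrays in Trib1.

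S100a4, which binds nonmuscle myosin and is linked to cell motility, ran the other way. It read 3694, 3736, 3695 and 3981 in Trib1, 2512, 2437, 2463 and 2451 in TB13, and 2447, 2426, 2416 and 2420 in TB14. Both lines with Bcl11a lay below Trib1 without overlap, and they overlapped each other. TB14 was lower than Trib1 by a log2 difference of -0.63 ± 0.020.

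S100a1, whose protein regulates calcium handling in heart and skeletal muscle, was dim. It read 65.5, 74.7, 65.6 and 88.1 in Trib1, 36.4, 38.0, 30.4 and 41.5 in TB13, and 32.1, 31.9, 28.8 and 31.6 in TB14. The Trib1 arrays were highest without overlap, and TB13 and TB14 overlapped. TB14 differed from Trib1 by -0.97 ± 0.078 on the log2 scale, which shrank to -0.30 ± 0.069 after calibration on the hybridization controls, where its 4 TB14 values lay below the dimmest control and were held constant.

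S100a10, the partner of annexin A2 in a membrane-bound tetramer, read 2672, 2756, 2647 and 2680 in Trib1, 1781, 1752, 1764 and 1928 in TB13, and 2089, 2090, 2096 and 2060 in TB14. Trib1 was highest, then TB14, then TB13, with no overlap. The difference of TB14 from Trib1 was -0.37 ± 0.024. S100a6, also called calcyclin, read 944.9, 917.5, 937.6 and 908.1 in Trib1, 608.8, 566.6, 595.4 and 580.1 in TB13, and 807.2, 795.2, 789.4 and 800.1 in TB14. It had the same order of lines without overlap, and TB14 differed from Trib1 by -0.21 ± 0.026.

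S100a11, a binding partner of annexin A1, read 2494, 2477, 2548 and 2540 in Trib1, 1725, 1623, 1694 and 1628 in TB13, and 2243, 2234, 2247 and 2256 in TB14. S100a13 read 303.1, 300.1, 306.5 and 305.1 in Trib1, 208.7, 193.3, 216.0 and 159.6 in TB13, and 242.1, 252.6, 252.2 and 251.0 in TB14. Both genes were highest in Trib1 and lowest in TB13 as deposited, again with no overlap between lines. The log2 differences of TB14 from Trib1 were small, at -0.16 ± 0.019 for S100a11 and -0.27 ± 0.063 for S100a13.

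Against Trib1, TB14 thus had 2 of the 8 genes higher and 6 lower with no overlap between the arrays. Over all genes, 30.9% were higher and 25.5% lower without overlap, and limma called 48.5% at an adjusted p under 0.05, 27.0% higher and 21.5% lower. After quantile scaling, 23.0% were called higher and 20.8% lower. The median log2 difference was -0.24 over the 8 genes and -0.0022 over all genes, while the mean of the 8, which the calprotectin pair sets, was 0.74. Calls that were also 2-fold or more higher made up 1.02% of all genes. Because these contrasts chose the genes, nothing is read from the counts.

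The TB13 comparisons need the state of those arrays beside them. Of 18 hybridization controls, which are added in known amounts, 17 read lower on TB13 than on Trib1 arrays, by a median of -0.928 on the log2 scale, against 0.00103 for TB14. The upper quartile of intensities was 71.8 to 72.6 on TB13 arrays and 102.2 to 108.9 on the other 8. The median difference of all genes was -0.39 for TB13 against Trib1 as deposited and 0.026 after quantile scaling. Differences of TB13 are therefore given under quantile scaling too, which gives all arrays the same distribution of intensities.

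As deposited, all 8 S100 genes were lower in TB13 than in Trib1 without overlap, where 61.5% of all genes were lower and 26.6% higher in the same way. The median difference was -0.63 over the 8 genes as deposited and -0.47 after quantile scaling. Calls covered 92.6% of genes as deposited, 63.5% lower and 29.0% higher, and after quantile scaling 38.2% lower and 42.0% higher. Calibration on the controls called 73.8% higher and 11.8% lower. A lower value in TB13 as deposited was thus common over the whole array.

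After quantile scaling, 7 of the 8 genes were still lower in TB13 than in Trib1. S100a8 differed by -0.70 ± 0.068 as deposited and -0.81 ± 0.070 after quantile scaling, but by 0.39 after calibration on the hybridization controls. That positive value rests on 4 Trib1 and 3 TB13 arrays on which S100a8 lay below the dimmest control and was held constant. S100a9, within the range of the controls on all 12 arrays, differed by -1.15, by -0.65 and, after calibration, by -0.015.

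S100a4 was lower in TB13 under all 4 scalings, from -0.78 with median scaling to -0.54 with quantile scaling. The same held for S100a10, from -0.74 to -0.37, and for S100a11, from -0.76 to -0.35. S100a1 differed by -0.80 both as deposited and after quantile scaling, and by 0.39 after calibration. S100a6 moved from -0.65 as deposited to -0.12 after quantile scaling and 0.0058 after calibration. S100a13 changed direction, from -0.62 as deposited to 0.15 after quantile scaling and 0.35 after calibration. Of the 8 genes, S100a4, S100a10 and S100a11 were thus lower in TB13 under all 4 scalings. S100a8, S100a9, S100a1 and S100a6 were lower under the other 3, and the calibrated values of S100a9 and S100a6 lay within their SE of 0.067 and 0.044.

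**Figure D2:**
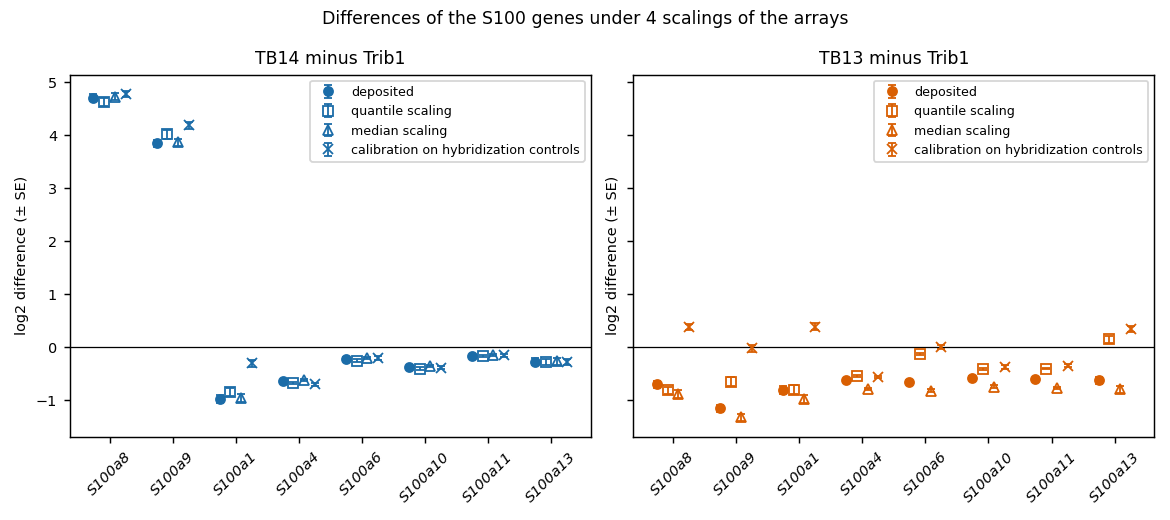
Log2 difference ± SE of each S100 gene against Trib1 (left, TB14; right, TB13) under the 4 scalings named in the legend. TB14 values keep their sign for all 8 genes, whereas calibration places S100a8, S100a1, S100a6 and S100a13 of TB13 at 0.39, 0.39, 0.0058 and 0.35, on the other side of 0 from the deposited values.

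The lines with Bcl11a also differed from each other. TB14 exceeded TB13 in S100a8 by 5.42 and in S100a9 by 5.00 on the log2 scale as deposited, and by 5.44 and 4.67 after quantile scaling. Calibration gave 4.39 and 4.21. S100a8 was above the array median on 1 of the 4 TB13 arrays and below the dimmest control on 3, so its size here is a distance from a dim level and no measured fold. As deposited, 6 of the 8 genes were higher in TB14 than in TB13 without overlap and 2, S100a1 and S100a4, overlapped, where 61.6% of all genes were higher and 27.3% lower. Calls covered 92.7% of genes, 63.3% higher and 29.4% lower, after quantile scaling 38.8% higher and 41.1% lower, and after calibration 13.6% higher and 70.9% lower. With quantile scaling S100a11 stayed higher by 0.22, S100a10 was near equal at 0.013, and S100a6 and S100a13 were lower, at -0.13 and -0.43, where the deposited differences were 0.43 and 0.35. The comparisons of TB13 and TB14 with Trib1 share the 4 Trib1 arrays, so their values are set side by side and not correlated.

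In total RNA of a whole culture, fewer cells of a type and less RNA per cell cannot be told apart. All 7 myeloid markers checked exceeded their array medians, among them Ptprc, Mpo and Itgam, and their summed level was 3241 to 3404 in Trib1, 2854 to 2947 in TB13 and 4842 to 4897 in TB14. The TB14 sum was set by Mpo, myeloperoxidase, which rose from 225.6 to 2296 (adjusted p = 4.4e-23). Of the 7, Mpo and Elane rose in TB14, Ptprc, Itgam, Csf1r and Spi1 fell and Cd33 did not pass the test, with a median difference of -0.37. The summed level of 5 mast cell or basophil markers, 4 of them above the array medians, was 8271 to 8357, 7205 to 7432 and 8795 to 8906. Most of it was Cpa3, with means of 5973, 6153 and 6127. Of the 4 tested, 3 rose in TB14, among them Ms4a2 from 74.7 to 630.9, and Fcer1a fell from 482.3 to 149.5. Of 5 T cell markers all 5 passed the filter, with sums of 207.2 to 216.7, 233.0 to 281.2 and 141.1 to 147.0. That sum mixed Cd3g, with means of 69.0, 14.6 and 13.9, and Cd3e, with means of 65.9, 152.5 and 62.8. Of 4 B cell markers 3 passed, with sums of 90.5 to 94.4, 123.0 to 138.6 and 86.4 to 93.9. Among them Ms4a1 was above the medians on the 4 TB13 arrays alone, with means of 19.1, 39.6 and 18.7. The T cell marker Cd4 likewise passed through TB13 alone, with means of 18.8, 31.1 and 17.2, and Cd3g passed through Trib1 alone. Erythroid markers gave 868.6 to 919.9, 1508 to 1640 and 1479 to 1514, with 2 of 3 above the medians. Nearly all of it was Hba-a1, with means of 856.8, 1519 and 1459. Fibroblast or endothelial markers, 2 of 6 above the medians, gave 813.5 to 844.4, 332.5 to 389.3 and 614.4 to 659.4. Most of that was Pecam1, which blood cells also carry, with means of 770.6, 285.5 and 579.4. Dcn, the fibroblast gene decorin, was above the medians on the 4 TB13 arrays alone, with means of 17.8, 32.7 and 18.6. None of 5 keratinocyte markers passed. The part of other cells in the S100 differences was not tested.

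A further 7 S100 genes, with 9 probe sets, were on the array and not among the 8. Only S100a5 and S100a16 passed the filter on dim values. S100a5 averaged 93.6 ± 9.27 on the Trib1 arrays, 58.6 ± 3.69 on the TB13 arrays and 61.7 ± 7.26 on the TB14 arrays (SD, n = 4). It fell in TB14 by 0.52 ± 0.074 on the log2 scale (adjusted p = 8.13e-06), and in TB13 by 0.57 (adjusted p = 4.99e-07), where quantile scaling gave -0.26 and calibration 0.58. TB14 and TB13 did not differ past the threshold, at 0.059 ± 0.074 (adjusted p = 0.447), but after quantile scaling TB14 was lower, at -0.20 (adjusted p = 0.028).

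S100a16 read 47.0 ± 1.57, 78.3 ± 9.68 and 46.1 ± 0.368 in Trib1, TB13 and TB14. It rose in TB13 by 0.60 ± 0.064 as deposited (adjusted p = 3.44e-08) and by 0.97 after quantile scaling, while TB14 differed from Trib1 by -0.022 ± 0.064 (adjusted p = 0.815). The 4 scalings all gave the TB13 rise, from 0.43 to 1.51. Its calibrated size is no measured difference, because S100a16 lay below the dimmest control on all 4 Trib1 arrays and was held constant there. A second S100a16 probe set was dim, at 13.6 ± 0.409, 14.2 ± 2.29 and 13.9 ± 0.717. S100a3, S100a14, S100a7l2, S100b and S100g read between 7.35 and 19.2 on all arrays, above the array median on none.

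S100a8 and S100a9 lie beside each other in a chromosomal block that holds 12 S100 genes among 15 annotated genes, from S100a1 to S100a9. In it 8 S100 genes were tested, and S100a4, S100a5 and S100a6 stand next to each other before the calprotectin pair. S100a10 and S100a11 lie elsewhere on the chromosome, 83 genes further on. Over all genes, 27.0% were called higher and 21.5% lower in TB14 against Trib1. Of the 20 tested neighbours, 10 on each side of the block, 3 rose, 2 fell and 15 did not pass the test. Their differences ran from -0.22 for Lce1h, a cornified envelope gene, to 0.45 for Ilf2 (adjusted p = 4.15e-08), which encodes an RNA-binding factor, with a median of -0.01. None changed 2-fold or more. In TB13, 13 of the 20 rose and 7 fell as deposited, where 29.0% of all genes were called higher and 63.5% lower. After quantile scaling 15 rose and 4 fell, against 42.0% and 38.2% of all genes. All 10 after the block rose in TB13 as deposited, from 0.31 for Lelp1 to 1.17 for Lce1i. The filter asked for 4 of 12 arrays, so a gene could pass it through the TB13 arrays alone. No rise of the region in TB13 is therefore read from these counts, and no lack of change in TB14 either.

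**Figure D3:**
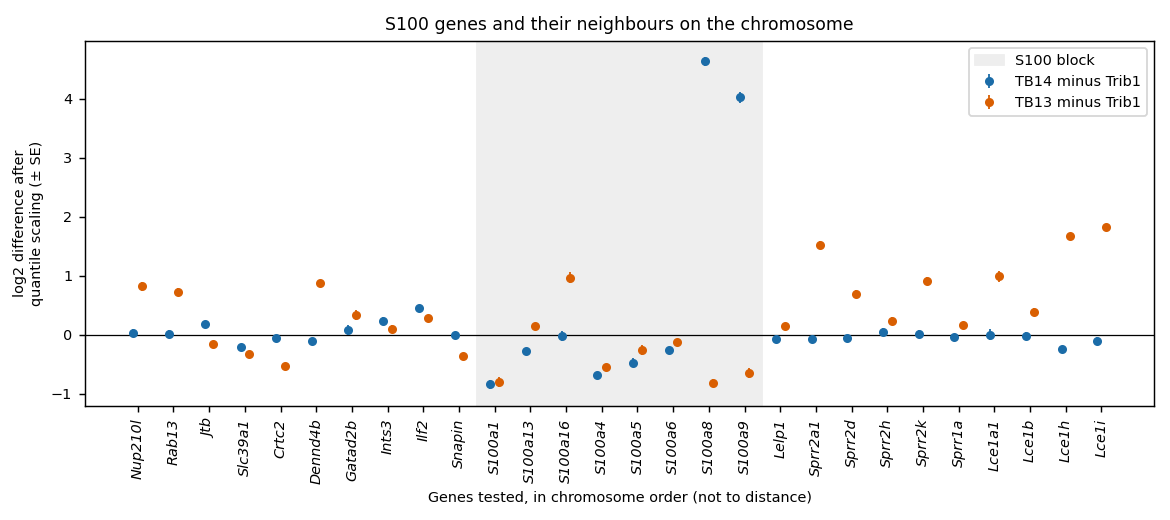
Log2 difference ± SE after quantile scaling of TB14 and TB13 against Trib1 for the tested genes in chromosome order, with the S100 block shaded (spacing is not to distance). In TB14, S100a8 and S100a9 stand at 4.63 and 4.02, and the 20 genes outside the block lie between -0.24 and 0.45. In TB13 these 20 genes lie between -0.52 and 1.82.

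Inside the cell, annexins and scaffold proteins are partners of S100 proteins. Of 13 listed partners, 10 were tested, and in TB14 against Trib1 3 rose, 6 fell and 1 did not pass the test. Their median difference was -0.09, against -0.0022 over all genes, of which 27.0% were called higher and 21.5% lower. Anxa2, encoding the annexin that binds S100A10, read 565.9 ± 7.59 in Trib1, 830.3 ± 5.68 in TB13 and 1381 ± 30.3 in TB14. It rose by 1.27 ± 0.023 in TB14 (adjusted p = 4.22e-19) and by 0.54 ± 0.023 in TB13 (adjusted p = 3.26e-14), or by 1.05 after quantile scaling. S100a10 itself was lower than in Trib1 in both lines under all 4 scalings, so the genes of this protein pair differed in direction.

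Anxa1, encoding a partner of S100A11, fell by 0.13 in TB14, from 2203 ± 11.1 to 2015 ± 10.9 (adjusted p = 0.000103), and TB13 read 1111 ± 46.4, a difference of -0.98 as deposited and -0.71 after quantile scaling. Ahnak, a giant scaffold protein bound by S100A10 with annexin A2, fell from 246.8 ± 11.7 to 115.6 ± 5.39, a log2 difference of -1.02 ± 0.058 (adjusted p = 1.66e-11), and to 62.7 ± 5.81 in TB13, where the difference was -1.79 as deposited and -1.31 after quantile scaling. Its second probe set past the filter gave the other direction in TB13. Anxa6 fell by 0.41 in TB14 (adjusted p = 1.79e-06) and Anxa11 by 0.28 (adjusted p = 0.000423). S100pbp, whose human counterpart binds S100P, rose by 0.25 ± 0.055 (adjusted p = 0.000917). In TB13, 1 partner rose and 9 fell as deposited, with a median of -0.74 against -0.39 over all genes. After quantile scaling 2 rose and 7 fell. Among all genes, 29.0% were called higher and 63.5% lower as deposited, and 42.0% and 38.2% after quantile scaling. TB14 was called higher than TB13 in all 10 as deposited and in 9 after quantile scaling. The shares of all genes called higher were 63.3% and 38.8%. Calibration called 5 of the 10 higher, 3 lower and 2 not, against 13.6% of all genes higher and 70.9% lower.

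Receptors and adaptors for S100 proteins outside the cell had 8 of 10 listed genes tested. Of these, 3 rose, 2 fell and 3 did not pass the test in TB14. The median was 0.11, and 27.0% of all genes were called higher and 21.5% lower. Tlr4, a calprotectin receptor, fell from 89.3 ± 4.35 to 48.8 ± 2.78, a log2 difference of -0.73 ± 0.065 (adjusted p = 1.37e-08). Myd88, the adaptor that passes on its signal, fell from 334.4 ± 15.6 to 224.8 ± 2.04, a difference of -0.55 ± 0.047 (adjusted p = 8.84e-09), and Ly96, its co-receptor MD-2, differed by -0.11 (adjusted p = 0.147). The line with the highest S100a8 and S100a9 had lower Tlr4 and Myd88 than Trib1, under all 4 scalings. For Tlr4 the calibrated difference rests on a constant, because it lay below the dimmest control on all 4 TB14 arrays.

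Ager, encoding RAGE, was dim at 31.0 ± 0.979 in Trib1 and 38.4 ± 1.01 in TB14, and rose by 0.22 ± 0.055 (adjusted p = 0.00202), although its second probe set gave the other direction. Bsg and Emb, encoding cell surface glycoproteins that bind S100A9 or calprotectin, rose by 0.11 (adjusted p = 0.00204) and 0.14 (adjusted p = 7.38e-07). Of the 4 Emb probe sets past the filter, 1 gave the other direction. In TB13, 2 of the 8 genes rose and 5 fell, both as deposited and after quantile scaling. Of all genes, 29.0% were called higher and 63.5% lower as deposited, and 42.0% and 38.2% after quantile scaling. Tlr4 differed there by -1.15 (adjusted p = 2.32e-12) and by -1.12 after quantile scaling, but by 0.052 after calibration. Myd88 fell in TB13 under all 4 scalings, with differences of -1.43 as deposited and -0.69 after quantile scaling.

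Other EF-hand genes changed in both directions. Of 22 listed genes 17 were tested. In TB14 7 rose, 8 fell and 2 did not pass the test, where 27.0% of all genes were called higher and 21.5% lower. The median of the 17 was -0.02. The largest was Actn1, encoding the actin crosslinker alpha-actinin, which fell from 835.6 ± 7.80 to 459.0 ± 5.57, a difference of -0.85 ± 0.029 (adjusted p = 7.01e-15). Capn1, a calpain protease subunit, rose from 137.5 ± 6.79 to 188.2 ± 9.57 (0.42 ± 0.050, adjusted p = 7.22e-07). Efhd2 fell by 0.36 (adjusted p = 1.3e-08) and Calm3, one of the calmodulin genes, rose by 0.25 (adjusted p = 1.74e-06). All 17 fell in TB13 as deposited, with a median of -0.69, where 63.5% of all genes were called lower and the median of all genes was -0.39. After quantile scaling 11 fell, 3 rose and 3 did not pass the test, where 38.2% of all genes were called lower and 42.0% higher.

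Calprotectin accumulates as neutrophils mature, so genes of secondary granules and late neutrophils were set beside it. Of 14 listed genes 10 were tested. In TB14 5 rose, 4 fell and 1 did not pass the test, with a median of 0.14. Calls over all genes were 27.0% higher and 21.5% lower. Ngp, neutrophilic granule protein, rose from 52.1 ± 1.96 to 203.7 ± 6.29, by 1.74 ± 0.055 (adjusted p = 1.85e-15). Hp, haptoglobin, rose from 41.3 ± 4.73 to 178.6 ± 7.51, by 1.83 ± 0.064 (adjusted p = 9.13e-15). In TB13, Ngp and Hp differed from Trib1 by 0.073 (adjusted p = 0.21) and 0.047 (adjusted p = 0.487) as deposited. After quantile scaling Ngp rose there by 0.25 (adjusted p = 0.00441), and Hp differed by 0.031 (adjusted p = 0.705).

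Mmp8, neutrophil collagenase, rose in both lines, by 1.10 ± 0.043 in TB14 (adjusted p = 3.88e-14) and 1.42 ± 0.043 in TB13 (adjusted p = 2.93e-16), or 2.04 after quantile scaling, so it was high in the line where S100a8 and S100a9 were low. Pglyrp1, a bactericidal granule protein, fell from 472.0 ± 16.8 to 182.4 ± 4.03 in TB14, a difference of -1.31 ± 0.058 (adjusted p = 2.78e-13). Lcn2, lipocalin 2, read 370.8 ± 8.16 in Trib1 and 336.2 ± 9.84 in TB14, a difference of -0.14 ± 0.064 that did not pass the test (adjusted p = 0.09), and fell to 62.1 ± 9.61 in TB13, with a difference of -2.37 as deposited and -1.89 after quantile scaling. Without TB13 replicate 4, the TB14 difference of Lcn2 passed the test (adjusted p = 0.00931). The granule list thus held genes on both sides of Trib1 in TB14.

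Of 10 listed transcription factors of granulocyte genes 9 were tested, and in TB14 5 rose and 4 fell, with a median of 0.13. The shares over all genes were 27.0% called higher and 21.5% called lower. Gfi1, a repressor needed for neutrophil development, rose from 35.1 ± 1.88 to 148.1 ± 2.41, by 1.75 ± 0.060 (adjusted p = 6.77e-15). Cebpd, encoding C/EBPdelta, rose from 63.3 ± 5.18 to 154.9 ± 9.83, by 1.14 ± 0.094 (adjusted p = 4.09e-09). Spi1 fell by 0.37 ± 0.049 (adjusted p = 2.7e-06), Cebpa fell by 0.26 ± 0.033 (adjusted p = 2.28e-06) and Cebpb fell by 0.16 ± 0.021 (adjusted p = 3.03e-06). Irf8, a monocyte factor, fell from 50.9 ± 2.15 to 33.5 ± 2.91 (adjusted p = 4.38e-07). Calibration gives no value for it, since Irf8 lay below the dimmest control on all 8 arrays of both lines and was held constant.

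In TB13, 2 of the 9 factors rose and 7 fell as deposited, and 4 rose and 3 fell after quantile scaling. The shares over all genes were 29.0% higher and 63.5% lower as deposited, and 42.0% and 38.2% after quantile scaling. Gfi1 was at 41.7 ± 4.85 there, a difference of 0.18 ± 0.060 (adjusted p = 0.00746) that became 0.13 (adjusted p = 0.128) after quantile scaling. Cebpd was at 50.2 ± 10.4, a difference of -0.29 ± 0.094 (adjusted p = 0.00761) that became -0.14 (adjusted p = 0.328). Spi1 fell in TB13, with a difference of -1.11 ± 0.049 (adjusted p = 6.33e-14) that was -0.38 after quantile scaling. TB14 exceeded TB13 in Gfi1 by 1.57 ± 0.060 (adjusted p = 8.12e-15) and in Cebpd by 1.43 ± 0.094 (adjusted p = 2.17e-11), under all 4 scalings.

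**Figure D4:**
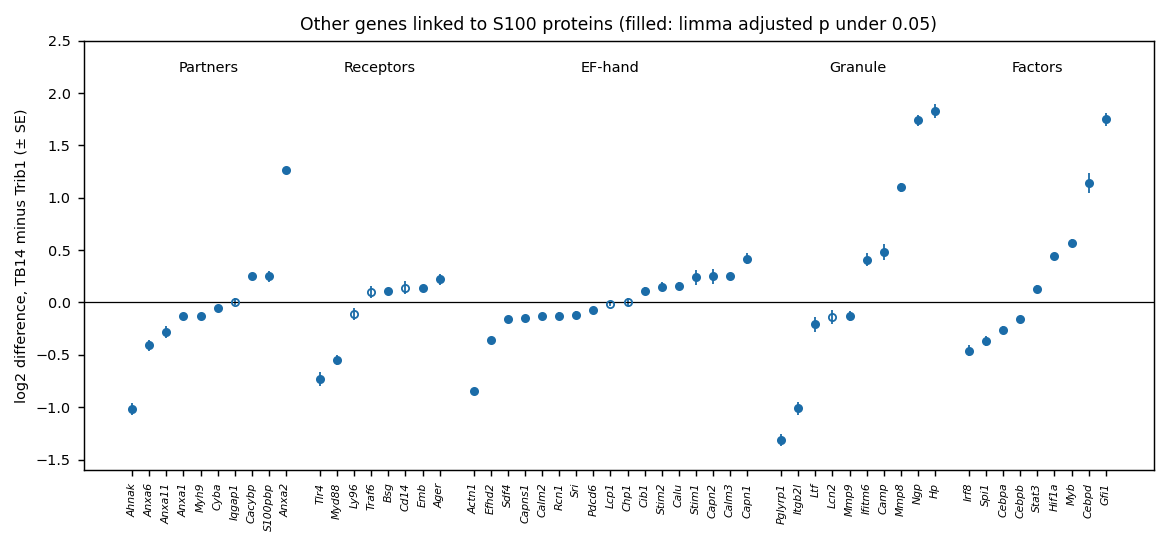
Log2 difference ± SE of TB14 against Trib1, as deposited, for the tested genes of 5 lists tied to S100 proteins, sorted within each list. Filled points passed limma's adjusted p threshold of 0.05, and Anxa2 at 1.27, Hp at 1.83 and Gfi1 at 1.75 are the highest points of their lists.

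The genes whose pattern was most like each S100 gene were found by the root mean square difference of centred log2 values over the 12 arrays, a description with no test. S100a8 and S100a9 were nearest to each other, at 0.39. Next came Mgst1, a glutathione transferase of membranes, at 0.82 from S100a8 and 0.76 from S100a9, and Stfa2l1, a stefin-like protease inhibitor, at 0.95 and 0.73. Mgst1 read 16.01 ± 1.23 in Trib1, 27.4 ± 2.51 in TB13 and 422.4 ± 31.1 in TB14, and Stfa2l1 read 31.1 ± 2.54, 22.5 ± 3.23 and 320.1 ± 5.92. Cnn3 and Elane, neutrophil elastase, completed the 5 nearest to S100a8, at 1.38 and 1.45, and Noct and Elane those nearest to S100a9, at 1.24 and 1.29. After quantile scaling S100a9, Mgst1, Stfa2l1 and Cnn3 were still the first 4 for S100a8, with Stfa3 in place of Elane. For S100a9 the order after S100a8 became Mgst1 at 0.60, Stfa2l1 at 0.73, Stfa3 at 1.29 and Cnn3 at 1.31, so that Stfa3 and Cnn3 replaced Noct and Elane.

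**Figure D5:**
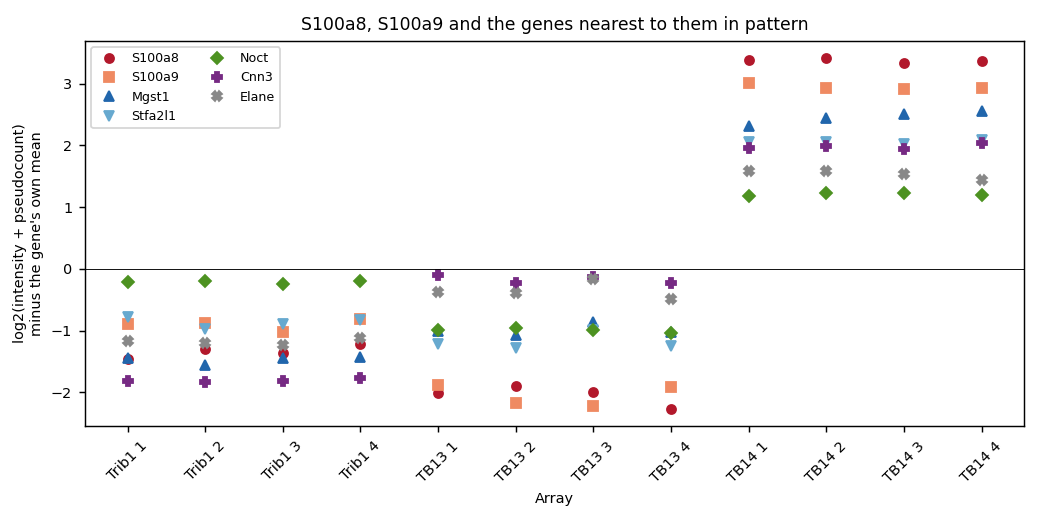
Centred log2(intensity + 12.7) of S100a8, S100a9 and their nearest genes on each array, as deposited. All 7 genes are highest on the TB14 arrays, and below 0 in TB13 S100a8 and S100a9 lie lowest, near -2, while Cnn3 and Elane lie nearer 0.

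The other members had close neighbours in pattern with smaller distances, since they varied less. S100a6 was nearest to Elovl5, a fatty acid elongase, at 0.026 and then to S100a11, at 0.032. S100a4 was nearest to Fcer1g, the Fc receptor gamma chain, at 0.043 and to Irf1 at 0.048, and S100a10 to Smim3 at 0.025 and Id1 at 0.030. S100a11 was nearest to Phka2 at 0.028, S100a13 to Mrpl52 at 0.051, and S100a1 to Cideb and Pawr, both at 0.10. After quantile scaling the nearest genes of S100a1, S100a4, S100a6, S100a10 and S100a11 were others, and Mrpl52 remained nearest to S100a13.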

How the data were processed

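Biotin-labelled cRNA from 100 ng of total RNA was hybridized to 12 arrays. The authors deposited linear intensities made with MAS5, per the submitters' processing notes. The version, the scaling target and the genome build were not given in the sources used here. Of 45141 probe sets, 104 controls were left out. Platform annotation gave 28898 probe sets 1 gene, 551 several and 15588 none, and the symbols of the 8 S100 probe sets matched RefSeq.

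Probe sets above the array median on at least 4 of 12 arrays were kept (17475 with 1 gene), and the brightest one stood for each gene, giving 11223. Of 13 named genes with a further probe set past the filter, 2 (Ager and Emb) had one in the other direction for TB14 against Trib1. Intensities were taken to log2(value + 12.7), the 25th percentile of all values, with no further scaling. In R 4.3.3, limma 3.58.1 fitted 3 groups with a variance trend, and p-values were Benjamini-Hochberg adjusted over all genes. A gene was called at an adjusted p under 0.05. Arrays of a line correlated at 0.9953 or above, genes had a median within-line SD of 0.0706 (log2), and the number of arrays limits the precision.

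The members and lists were chosen with earlier results of these data known. Named were all S100 genes, Ager, Tlr4, Anxa2, Anxa1, S100pbp, Cebpa, Cebpb, Cebpd and Spi1, the 4 largest called changes of each list and contrast, the chromosome neighbours and the genes nearest in pattern. Some further genes that met the rule are in the closing section. Alternatives were quantile and median scaling, calibration on 18 hybridization controls (a quadratic curve, held constant outside their range), other filters, pseudocounts, variance models and probe set rules, a replicate block, fits of 2 lines and leaving out each array.

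On simulated data with 11223 genes and 50 changed per fold size, the TB14 against Trib1 fit recovered 74% of 1.2-fold changes and 100% of 1.5-fold, 2-fold and 4-fold changes, with 12 false calls. The simulated arrays had independent noise and no array-wide shift between lines, so the false calls give no error rate for the measured arrays. Figures used matplotlib 3.10.9.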

Additional observations from a re-analysis of the deposited data

Results flagged for a closer look

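In 14 of 150 groups of 4 arrays, 1 array stood apart from the other 3 by Dixon's criterion, where chance flags about 7.5. Among the S100 genes these were S100a4 on Trib1 replicate 4 (3981, against 3694 to 3736), S100a10 on TB13 replicate 4 (1928, against 1752 to 1781), S100a1 on TB14 replicate 3 (28.8, against 31.6 to 32.1) and S100a13 on TB14 replicate 1 (242.1, against 251.0 to 252.6). The dim S100a7l2 stood out on Trib1 replicate 3 (7.60) and S100b on TB13 replicate 4 (14.1). Among other genes they were Actn1 on TB13 replicate 4 (241.2), Bsg on Trib1 replicate 3 (1890.0), Capn1 on TB14 replicate 4 (173.9), Cib1 on Trib1 replicate 2 (410.1), Gfi1 on Trib1 replicate 2 (32.3) and TB14 replicate 1 (151.7), Hp on Trib1 replicate 4 (48.4) and Irf8 on TB14 replicate 4 (37.8).

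S100a8 and S100a9 were above Trib1 on every TB14 array and below it on every TB13 array, and TB14 minus TB13 was 5.42 and 5.00 on the log2 scale, for S100a8 a distance from a level near the TB13 array medians. That difference was not tested, since it chose the genes. Of the named genes, another 11 rose in TB14 and fell in TB13 as deposited, and the difference of the lines passed limma's test at an adjusted p under 0.05. Over all 11223 genes, 2414 (21.5%) had this pattern as deposited and 885 (7.89%) after quantile scaling, so it was common. TB14 minus TB13 was 1.55 for Ifitm6, 1.43 for Cebpd, 1.29 for Stim2, 1.27 for Cib1, 1.2 for Capn1, 1.18 for S100pbp, 0.94 for Calm3, 0.77 for Myb, 0.64 for Bsg, 0.55 for Stat3 and 0.43 for Emb. After quantile scaling Myb and Stat3 no longer changed in opposite directions, and Cebpd stayed lower in TB13 but did not pass the test there. Second probe sets of Stat3 and S100pbp gave the other direction in TB13, and 1 of the other Emb probe sets gave it in TB14.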

How the results depend on the processing

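Counts of called genes were 5446 for TB14 against Trib1, 10388 for TB13 against Trib1 and 10405 for TB14 against TB13, and stayed within 1.5 times of these under every alternative fit run. Their split by direction did not hold. For TB13 against Trib1, 3257 genes were called higher and 7131 lower as deposited, and 8277 and 1326 after calibration. Leaving out each array gave totals of 5005 to 5878, 10253 to 10371 and 10280 to 10389. The filter above the median on all 12 arrays left S100a8 out. With the replicate number as a replicate block, the counts were 5378, 10373 and 10382. Same-numbered arrays had correlations from -0.1055 to 0.1195, over 0.1 in 1 of 12 pairs, so the numbers were not taken as a pairing, and the block turned no S100 difference.

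The S100a8 difference of TB14 from Trib1 was 5.02 with a pseudocount of 1 and 4.05 with 50. For TB13 it was -0.94 and -0.39, -0.88 with median scaling and 0.39 with calibration. The S100a9 difference of TB14 was 4.02 with quantile scaling, 4.19 with calibration and 3.60 with a pseudocount of 50. For TB13 it was -0.65 with quantile scaling, -1.32 with median scaling, -0.015 with calibration, and -1.28 and -0.87 with pseudocounts of 1 and 50. Leaving out each array gave 4.67 to 4.75 and -0.75 to -0.63 for S100a8, and 3.81 to 3.88 and -1.20 to -1.09 for S100a9.

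Reversals came from the scaling of the arrays, with 1 exception given last, and the cause was not tested. With calibration, TB13 against Trib1 became 0.39 for S100a1, 0.0058 for S100a6, 0.35 for S100a13, 0.58 for S100a5, 0.052 for Tlr4, 0.50 for Ly96, 0.22 for S100pbp, 0.31 for Anxa11, 0.34 for Capn1, 0.029 for Calm3, 0.034 for Cebpa, 0.18 for Cebpb, 0.88 for Cebpd, 0.48 for Myb, 0.77 for Irf8 and 0.49 for Stat3. TB14 against Trib1 became 0.015 for Irf8, which holds no information, since calibration gives 1 constant to genes below the lowest control and Irf8 was below it on all arrays of both lines. Of the 32 reversals under calibration, 7 rest at least in part on such constants: those of S100a8, Ly96 and Irf8 against Trib1 and those of Tlr4, S100a5 and Ly96 between TB14 and TB13. TB14 against TB13 became -0.21 for S100a6, -0.019 for S100a10, -0.62 for S100a13, -1.12 for S100a5, -0.60 for Tlr4, -0.48 for Ly96, -0.17 for Myd88, -0.40 for Ahnak, -0.63 for Anxa11, -0.033 for Actn1, -0.025 for Efhd2, -0.28 for Cebpa, -0.14 for Spi1 and -0.34 for Stat3.

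With quantile scaling, TB13 against Trib1 became 0.15 for S100a13, 0.09 for Cebpb, 0.36 for Myb and 0.33 for Stat3. TB14 against TB13 became -0.13 for S100a6, -0.43 for S100a13, -0.20 for S100a5, -0.21 for Cebpa, -0.035 for Spi1 and -0.22 for Stat3. With median scaling, TB14 against TB13 became 0.022 for S100a1, 0.17 for S100a4, 0.016 for Ager, 0.16 for Cebpb and 0.023 for Irf8. With the mean of all probe sets of a gene it became 0.082 for Cebpb.

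Leaving out 1 array changed 3 calls. Cib1 in TB14 against Trib1 lost its call without Trib1 replicate 2 (adjusted p = 0.0576), Lcn2 there gained one without TB13 replicate 4 (adjusted p = 0.00931), and Cebpb in TB14 against TB13 gained one without TB13 replicate 3 (adjusted p = 0.0406). S100a8 was dim in Trib1 and TB13, so the size of its differences moved with the pseudocount.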
